A study of Homo sapiens with 29 samples.

Results

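INO80 and MCRS1 are subunits of the same chromatin remodelling complex, and their occupancy was compared in HepG2, a human liver cancer cell line, by ChIP-seq, in which DNA fixed to a protein is pulled down with an antibody and sequenced. The members are the 23665 INO80 peaks and the 23425 MCRS1 peaks listed for HepG2 on hg19, 47090 of the 151036 peaks in the 9 lists of the series. A peak was counted as held by both factors when it overlapped a peak of the other by at least 1 bp, and as lone when it did not. The lists stem from 3 INO80 libraries, made with 2 antibody lots, and 2 MCRS1 libraries, made with 1 lot, all from HepG2 cells for which the labels give no drug treatment. The other lists are YY1, RUVBL1 and RUVBL2 in HepG2 and INO80, MCRS1, YY1 and RUVBL2 in Huh7, a second liver cancer line, and the HepG2 YY1 list was made from ENCODE reads. With a single list for each factor and line there is no replicate error, and no p-value is given. Intervals are 95% Wilson intervals for shares and Newcombe intervals for differences, and they cover counting error only. The lists give positions without a height. The depth of reads under a peak is therefore unknown, and its width was used as the measure of its extent and strength. A lone peak says that no peak of the other factor was listed there, not that the protein was absent. The part that the unequal number of libraries and antibody lots plays in the lone peaks was not tested.

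The INO80 complex uses the ATPase INO80 to slide nucleosomes and to exchange histones next to gene starts, and it takes part in transcription, replication and repair. MCRS1 is an accessory subunit of the complex and also a subunit of the NSL complex, which acetylates histone H4 at gene starts through KAT8. YY1 is a DNA-binding transcription factor that purifies with the INO80 complex, and RUVBL1 and RUVBL2 are ring-forming ATPases that the complex shares with other remodellers.

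Sequences are given for the centre of the widest places, in which overlapping peaks are merged. They cover places of both factors and of INO80 alone, at a coding start and away from one, and of MCRS1 alone away from one. The SLC16A3 place spans 19091 bp with an INO80 peak of 6793 bp, and the 5S place 21110 bp with one of 7989 bp. Whether INO80 covers the printed bases at SLC16A3 and the 5S array was not checked. Each is 200 bases of GRCh37 (the sequence of hg19), plus strand, and each is named by its nearest coding start or, for the 5S array and C7orf50, by the genes it lies in. The words at a start describe the whole place, and the window itself can lie farther off. The EN1 window begins at 119606616, more than 1 kb from the EN1 coding start at 119605224, which the peak spans. Capitals mark exact matches, on either strand, to GGGGCGG (the SP word), CCGGAAGT (ETS), AAGATGGC (YY1), AGGGGGC (CTCF) or GTTAAT (HNF1). The remaining words searched were GCGCATGC (NRF1), CCAAT (NFY), TGAGTCA (AP-1), TGTTTAC (FOXA), CAAAGTCCA (HNF4) and TTGCGCAA (CEBP). A match is a description of letters and does not mark a bound site.
SLC16A3, both, at a start, in an exon (chr17:80195032-80195231): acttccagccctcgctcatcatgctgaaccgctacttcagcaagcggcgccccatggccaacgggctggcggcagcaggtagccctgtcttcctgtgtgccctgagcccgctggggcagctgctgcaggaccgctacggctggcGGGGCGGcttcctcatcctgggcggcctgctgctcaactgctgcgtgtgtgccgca
5S ribosomal RNA gene array, both, away from coding starts (chr1:228773399-228773598): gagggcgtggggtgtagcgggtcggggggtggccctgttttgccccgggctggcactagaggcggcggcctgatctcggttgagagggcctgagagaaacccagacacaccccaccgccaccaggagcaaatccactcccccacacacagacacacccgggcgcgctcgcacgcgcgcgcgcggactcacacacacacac
EN1, INO80 alone, at a start, between coding genes (chr2:119606616-119606815): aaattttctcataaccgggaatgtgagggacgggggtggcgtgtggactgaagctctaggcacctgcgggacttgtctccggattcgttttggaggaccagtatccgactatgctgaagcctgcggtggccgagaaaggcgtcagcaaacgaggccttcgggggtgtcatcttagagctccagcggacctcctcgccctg
NKX2-2, INO80 alone, away from coding starts, between coding genes (chr20:21500768-21500967): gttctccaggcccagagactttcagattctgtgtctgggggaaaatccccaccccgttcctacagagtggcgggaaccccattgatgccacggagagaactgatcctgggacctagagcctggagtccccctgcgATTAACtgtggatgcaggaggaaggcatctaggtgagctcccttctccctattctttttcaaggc
C7orf50, MCRS1 alone, away from coding starts, in an intron (chr7:1042492-1042691): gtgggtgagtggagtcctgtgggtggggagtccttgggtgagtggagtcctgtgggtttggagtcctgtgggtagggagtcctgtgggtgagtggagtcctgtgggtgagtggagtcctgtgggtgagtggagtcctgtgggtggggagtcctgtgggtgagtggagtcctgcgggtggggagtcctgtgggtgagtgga
The window at SLC16A3 held the SP word, and the windows at EN1, the 5S array and C7orf50 held none of the 11 words. The window beside NKX2-2 held the HNF1 word. The C7orf50 window is a tandem repeat of a short unit, and the 5S array repeats its gene many times over. Reads at these 2 sites may therefore stem from another copy.

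Most occupied places were held by both factors, and these were the wide ones. Of the INO80 peaks, 16649 of 23665 overlapped MCRS1, which is 70.4% (69.8 to 70.9). Of the MCRS1 peaks, 16628 of 23425 overlapped INO80, which is 71.0% (70.4 to 71.6). Merging overlapping peaks gave 29886 places, of which 16073 (53.8%) were held by both, 7016 by INO80 alone and 6797 by MCRS1 alone. The median width of a place was 1157 bp where both lay, 263 bp for INO80 alone and 236 bp for MCRS1 alone. A place of both merges peaks of the 2 factors, which adds to its width. By single peaks the median was 847 bp for INO80 with MCRS1 and 943 bp for MCRS1 with INO80. In bases, INO80 covered 22.4 Mb and MCRS1 21.4 Mb, with 14.9 Mb in common, which is 66.5% of the INO80 bases and 69.6% of the MCRS1 bases. Most shared places, 15064 of 16073, joined 1 INO80 peak to 1 MCRS1 peak. In those pairs the centres lay a median of 105.5 bp apart, and in 81.0% of pairs they were within 250 bp. The median log2 ratio of INO80 to MCRS1 width was −0.09, and 22.2% of pairs differed more than 2-fold in width. The overlap depends on how it is counted: with peaks trimmed or extended to 200 bp around their centres, 46.9% of INO80 peaks and 47.4% of MCRS1 peaks were shared.

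Among wide peaks the lists were not alike. Nearly every wide MCRS1 peak overlapped INO80, while a group of wide INO80 peaks had no MCRS1. Of INO80 peaks of 2000 bp or more, 2163 of 2527 overlapped MCRS1, which is 85.6% (84.2 to 86.9), against 2114 of 2125 MCRS1 peaks of that width that overlapped INO80, which is 99.5% (99.1 to 99.7). This left 364 lone INO80 peaks and 11 lone MCRS1 peaks at that width. From 1000 to 1999 bp the shares were 85.5% of INO80 peaks and 96.8% of MCRS1 peaks. The order turned among narrow peaks. From 250 to 499 bp, 64.6% of INO80 peaks and 54.5% of MCRS1 peaks were shared, and from 147 to 249 bp, 39.6% and 30.4%, in that order of factors. A wide peak has more bases in which to meet another, and the part of this in the rise with width was not tested.

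**Figure D1:**
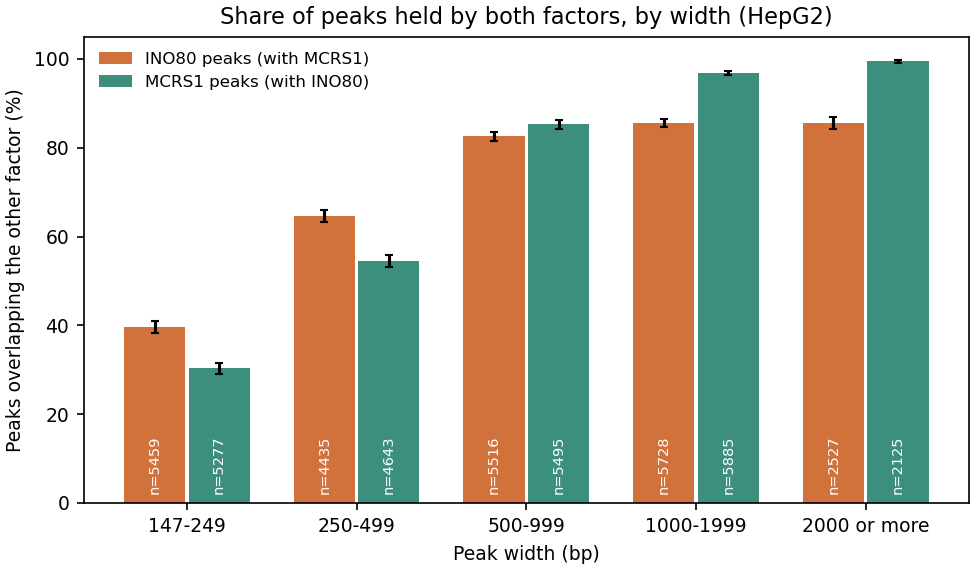
The percentage of INO80 peaks that overlap MCRS1, and of MCRS1 peaks that overlap INO80, in 5 classes of peak width in bp, with 95% Wilson intervals as bars. The INO80 share levels off near 85.6% at 2000 bp or more, where the MCRS1 share is 99.5%.

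Lone INO80 peaks lay at gene starts more often than lone MCRS1 peaks. A coding start lay within 1 kb of 61.5% of INO80 peaks with MCRS1 and of 61.5% of MCRS1 peaks with INO80. It lay within 1 kb of 32.7% of lone INO80 peaks (31.7 to 33.9) and of 15.6% of lone MCRS1 peaks (14.7 to 16.5). The difference between lone INO80 and lone MCRS1 peaks was 17.2 percentage points (15.8 to 18.6), and 8.85 points with all peaks at 200 bp. Width marked the contrast: among lone INO80 peaks of 2000 bp or more, 295 of 364 (81.0%) lay at a start, against none of the 11 lone MCRS1 peaks, where 0 of 11 has an upper bound of 25.9%. From 1000 to 1999 bp the shares were 72.3% of lone INO80 peaks and 29.1% of lone MCRS1 peaks. Within the narrowest class, 147 to 249 bp, they were 15.9% and 11.97%, in the same order. Of INO80 peaks with MCRS1, 83.6% lay at a start at 2000 bp or more and 76.6% from 1000 to 1999 bp. These shares were close to those of lone INO80 peaks of like width. From 147 to 249 bp the share was 28.0% with MCRS1, against the 15.9% of lone INO80 peaks.

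Away from starts, both lone kinds lay more often inside introns than the shared places did. Peak centres fell in introns of coding genes for 38.4% of INO80 peaks with MCRS1, 48.0% of lone INO80 peaks and 43.3% of lone MCRS1 peaks. The nearest peak of the other factor was a median of 12776.5 bp from a lone INO80 peak and 5950 bp from a lone MCRS1 peak. Within 1 kb it was found for 19.2% of lone INO80 peaks and 21.4% of lone MCRS1 peaks, so that close misses were a minority of both kinds.

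The balance of lone peaks varied by chromosome. The ratio of lone INO80 to lone MCRS1 peaks was 0.40 on chromosome 21, 0.58 on chromosome 20, 0.68 on chromosome 16 and 0.72 on chromosome 17. It was 1.90 on chromosome 13 and 2.19 on chromosome X. HepG2 is known to carry extra copies of chromosomes 2, 14, 16, 17 and 20, and chromosome 2 had a ratio of 1.40 while chromosome 14 had 0.76. The part of copy number in this order was not tested. Without those 5 chromosomes, 72.9% of MCRS1 peaks overlapped INO80.

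YY1 set the lone kinds apart. A YY1 peak overlapped 89.1% of INO80 peaks with MCRS1 and 26.0% of lone INO80 peaks, a difference of 63.1 points (62.0 to 64.2). It overlapped 89.5% of MCRS1 peaks with INO80 and 44.4% of lone MCRS1 peaks, a difference of 45.0 points (43.8 to 46.3). Lone INO80 peaks thus carried YY1 less often than lone MCRS1 peaks, by −18.46 points (−20.02 to −16.89). With every list cut to its wider 50% and the peaks sorted anew, this difference was −46.23 points. A lone peak in that setting can still overlap a narrower listed peak of the other factor. For 200 bp peaks the difference was −10.30 points. At the width of 1000 to 1999 bp, 179 of 828 lone INO80 peaks (21.6%, 18.95 to 24.55) and 152 of 189 lone MCRS1 peaks (80.4%, 74.2 to 85.5) overlapped YY1. Shared peaks of that width had YY1 at 96.6% of the INO80 peaks and 98.0% of the MCRS1 peaks. The YY1 share of lone INO80 peaks stayed between 21.6% and 32.3% in all 5 width classes. That of lone MCRS1 peaks was 31.7% at 147 to 249 bp and 73.2% at 500 to 999 bp. At coding starts YY1 overlapped 26.6% of lone INO80 peaks and 64.8% of lone MCRS1 peaks, and away from starts 25.7% and 40.7%, in that order.

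The RUVBL ATPases were listed far more often at peaks held by both subunits than at lone peaks. RUVBL2 overlapped 57.1% of INO80 peaks with MCRS1 and 3.01% of lone INO80 peaks. It overlapped 57.7% of MCRS1 peaks with INO80 and 10.6% of lone MCRS1 peaks. RUVBL1 overlapped 25.9% of INO80 peaks with MCRS1 against 1.81% of lone INO80 peaks, and 26.4% of MCRS1 peaks with INO80 against 2.66% of lone MCRS1 peaks. At 1000 to 1999 bp, RUVBL2 overlapped 8 of 828 lone INO80 peaks (0.966%) and 55 of 189 lone MCRS1 peaks (29.1%). None of YY1, RUVBL1 and RUVBL2 was listed at 7.51% of INO80 peaks with MCRS1, 71.0% of lone INO80 peaks (69.9 to 72.0) and 49.1% of lone MCRS1 peaks (47.9 to 50.3).

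Huh7 cells showed which kinds recurred in another line. INO80 was listed in Huh7 at 53.7% of HepG2 INO80 peaks with MCRS1 and at 21.7% of lone INO80 peaks. This is a difference of 32.0 points (30.8 to 33.3). Shared INO80 peaks were wider, and within every width class the gap was smaller than 32.0 points. From 147 to 249 bp the shares were 16.6% of INO80 peaks with MCRS1 and 6.55% of lone INO80 peaks. From 500 to 999 bp they were 52.3% and 32.95%, and from 1000 to 1999 bp 72.4% and 57.6%, in that order. MCRS1 was listed in Huh7 at 26.5% of MCRS1 peaks with INO80 and at 3.40% of lone MCRS1 peaks, a difference of 23.1 points (22.3 to 23.9). With peaks of 200 bp the MCRS1 difference was 8.73 points. Few lone INO80 peaks, 107 of 7016 (1.53%), had MCRS1 in Huh7, and 408 of 6797 lone MCRS1 peaks (6.003%) had INO80 there. At coding starts, INO80 was listed in Huh7 for 42.2% of lone HepG2 INO80 peaks, against 11.7% away from starts. YY1 was listed in Huh7 at 12.5% of lone INO80 peaks and 12.9% of lone MCRS1 peaks (difference −0.39 points, −1.501 to 0.722). Split by position, it was listed at 20.1% (18.5 to 21.8) of lone INO80 peaks and 25.97% (23.4 to 28.7) of lone MCRS1 peaks at coding starts. Away from starts the shares were 8.84% (8.06 to 9.68) of lone INO80 peaks and 10.5% (9.73 to 11.3) of lone MCRS1 peaks. The intervals did not overlap within either position, narrowly so away from starts.

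**Figure D2:**
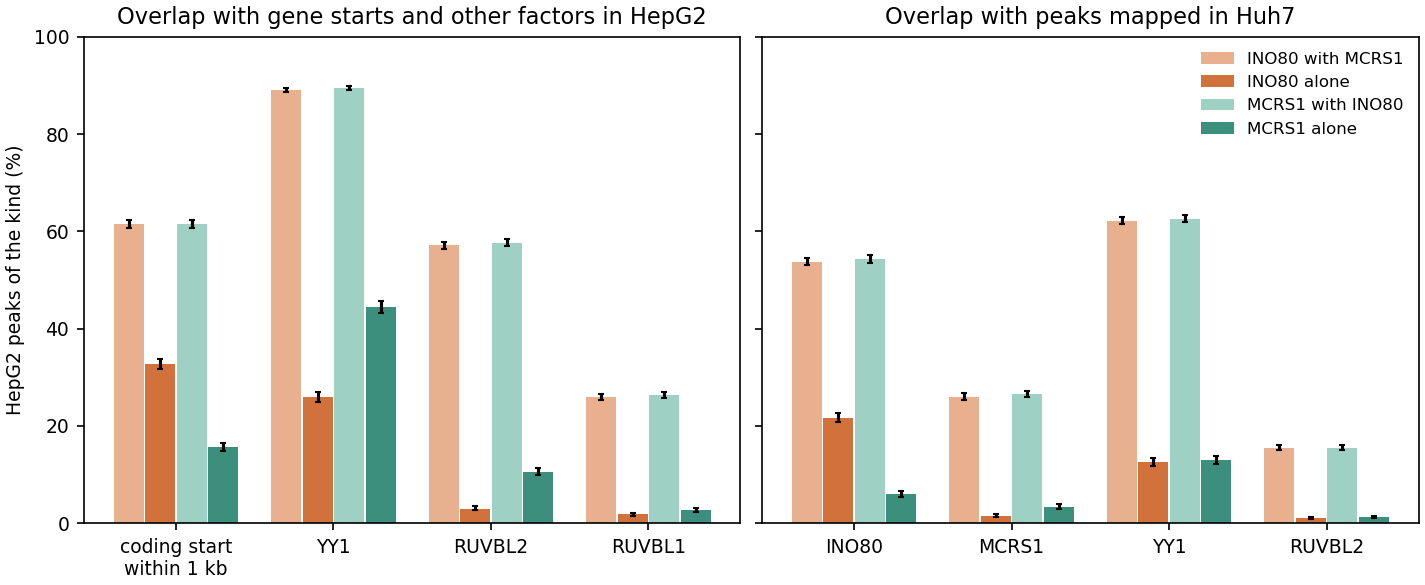
The percentage of peaks of the 4 kinds (INO80 with MCRS1, INO80 alone, MCRS1 with INO80, MCRS1 alone) that lie within 1 kb of a coding start or overlap each other list in HepG2 and Huh7, with 95% Wilson intervals. YY1 in HepG2 stands at 89.1%, 26.0%, 89.5% and 44.4% for the kinds in that order.

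Among the 19785 coding genes, 10880 (55.0%) had both factors within 1 kb of a start, 1726 (8.72%) had INO80 alone, 623 (3.15%) had MCRS1 alone and 6556 (33.1%) had neither. These shares are the background for every gene list below. Counting each list by itself, 63.7% of coding genes had INO80 and 58.1% had MCRS1 in HepG2. Of the 10880 genes held by both, 10765 had an INO80 peak at the start that itself overlapped MCRS1. A further 112 had the factors only in separate peaks, and the few left fell in neither count. The median widest peak was 1137 bp for INO80 and 1191 bp for MCRS1 at genes held by both. It was 987.5 bp at genes with INO80 alone and 350 bp at genes with MCRS1 alone. The count of genes with MCRS1 alone depends on the threshold: it was 1487 when only the wider 50% of each list was used, and 623 with all peaks. That of genes with INO80 alone was 1872 for the wider 50% and 1726 with all peaks, so the 2 counts lay closer together for the wider 50%. For the wider 50%, a gene counts as alone even where a narrower peak of the other factor was listed.

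The 3 gene classes differed in their other factors. YY1 in HepG2 lay at the start of 98.4% of genes held by both, 29.8% (27.7 to 32.0) of genes with INO80 alone, 86.0% (83.1 to 88.5) of genes with MCRS1 alone and 9.53% of genes with neither, against 62.6% of all coding genes. RUVBL2 lay at 70.1% of genes held by both, 1.16% of genes with INO80 alone and 10.1% of genes with MCRS1 alone, against 39.1% of all coding genes. INO80 in Huh7 lay at 74.2% of genes held by both, 51.4% of genes with INO80 alone and 22.8% of genes with MCRS1 alone, against 47.7% of all coding genes. MCRS1 in Huh7 lay at 37.6%, 3.24% and 15.9% of these classes in the same order, against 21.8% of all coding genes. The median distance of a start to the missing factor was 76552.5 bp at genes with INO80 alone and 23820 bp at genes with MCRS1 alone.

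The widest genes held by both include genes of secreted liver proteins and of chromatin regulators. At ALB, the gene of serum albumin, the INO80 peak was 15541 bp wide (chr4:74269989-74285529) and the MCRS1 peak 15648 bp (chr4:74269990-74285637), nearly the same span. FGL1, which encodes a protein secreted by hepatocytes, had 11744 bp of INO80 and 11776 bp of MCRS1. APOB, the gene of the main protein of low-density lipoprotein, had 9802 bp and 13124 bp, INO80 first. IRF2BP2, a transcriptional corepressor gene, had an INO80 peak of 14721 bp and an MCRS1 peak of 14026 bp. TNRC18 had 12272 bp of INO80 and 12446 bp of MCRS1. RHOF, a small GTPase gene, and SETD1B, a histone H3 lysine 4 methyltransferase gene, share a place of 14809 bp of INO80 and 11938 bp of MCRS1. Away from coding starts the widest shared places lay over the 5S array, in ASPSCR1, over MIR21 in VMP1, and over the non-coding RNA gene NEAT1.

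The widest genes held by INO80 alone were led by EN1 and include other genes known for roles in the embryo. EN1, which patterns the boundary of midbrain and hindbrain, had an INO80 peak of 8686 bp (chr2:119602373-119611058) and no other factor in either line within 1 kb of its start. SKOR1, which encodes a neural corepressor, had 7624 bp of INO80, NKX2-2, a homeobox gene of neural tube and endocrine pancreas, 7297 bp, and LHX4, a pituitary homeobox gene, 7258 bp. NFATC1, a calcium-responsive transcription factor gene, had 7524 bp, and CYP26B1, whose enzyme degrades retinoic acid, 7180 bp. PDGFA, a growth factor gene, had 7005 bp and MN1, a transcriptional regulator gene, 5893 bp. None of the 8 had YY1, RUVBL1 or RUVBL2 within 1 kb of a start in HepG2. Farther from the starts, the CYP26B1 peak overlapped 1 YY1 and 1 RUVBL2 peak. In Huh7, 7 of the 8 had INO80 and none had MCRS1, with Huh7 INO80 peaks of 7128 bp at LHX4 and 6856 bp at PDGFA. Away from starts, wide lone INO80 peaks lay beside NKX2-2 (7173 bp), over MIR124-3 on chromosome 20 (7042 bp), which encodes a neuronal microRNA, in PTPRN2 (5505 bp), in EBF3 (4988 bp) and near ONECUT3 (4426 bp).

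Genes held by MCRS1 alone had narrower peaks. NIPAL3, a magnesium transporter family gene, had an MCRS1 peak of 2992 bp, SECTM1 2955 bp, CRYAA, the gene of a lens crystallin, 2904 bp, TMC8 2835 bp and GNRH2, a peptide hormone gene, 2510 bp. No lone MCRS1 peak of 2000 bp or more lay at a start, so these 5 peaks met INO80 farther than 1 kb from the start. In all, 20 of the 623 genes with MCRS1 alone, and 31 of the 1726 with INO80 alone, were classed through a peak that was shared elsewhere along its length. SULT1A1, which encodes a sulfotransferase of hepatocytes, had a lone MCRS1 peak of 1953 bp, and its close paralogs make the placement of reads uncertain. CHD9NB had 1877 bp. Of these 7 genes, 5 had YY1 at the start and none had RUVBL2. The widest lone MCRS1 places away from starts lay in C7orf50 (3954 bp), at ENO1 (2672 bp), over LINC01297 (2515 bp), in GALNT9 (2315 bp) and near SIRPA (2310 bp).

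**Figure D3:**
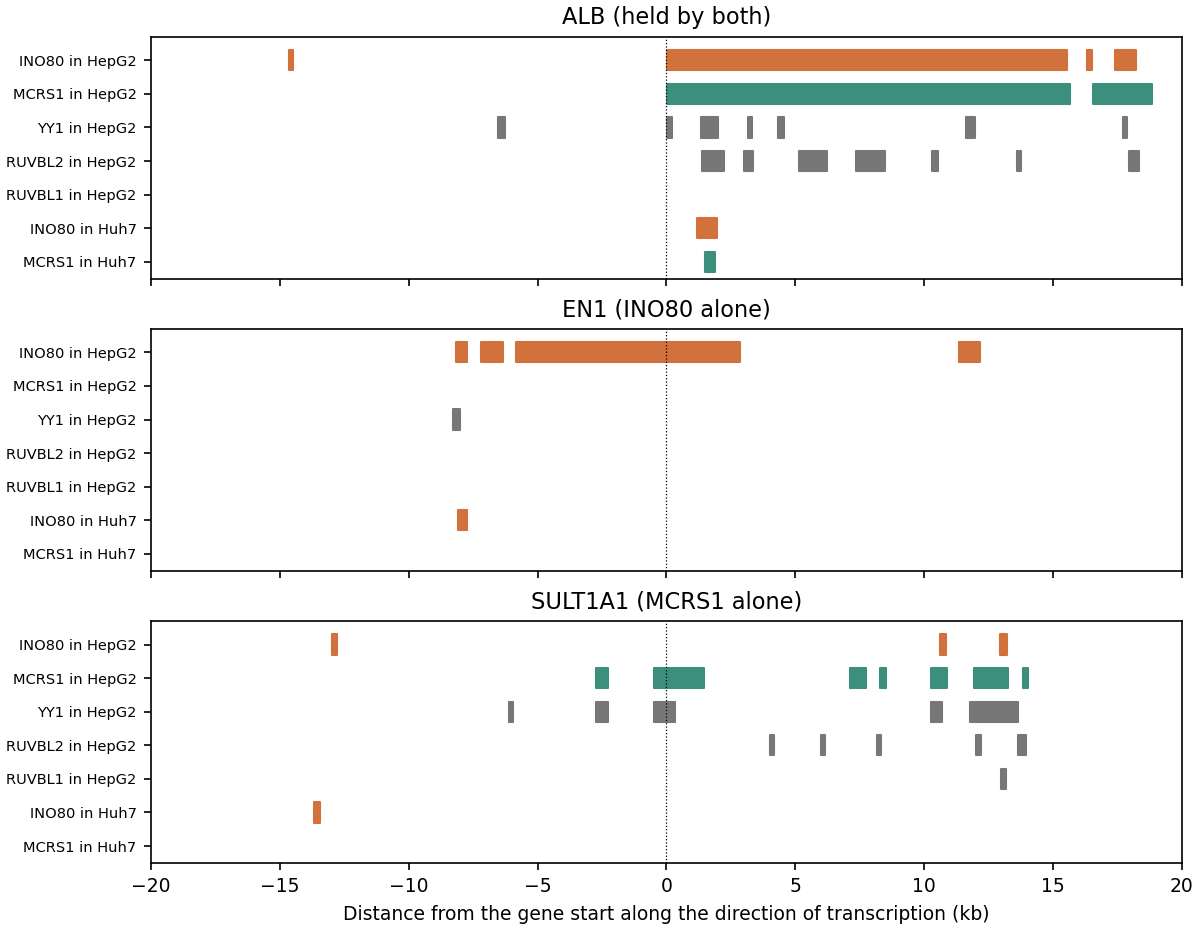
Peaks of INO80, MCRS1, YY1, RUVBL2 and RUVBL1 in HepG2, and of INO80 and MCRS1 in Huh7, around the starts of ALB (both), EN1 (INO80 alone) and SULT1A1 (MCRS1 alone), as bars along the distance from the start in kb, positive in the direction of transcription. The INO80 peak at EN1 spans 8686 bp with no MCRS1 peak in the window, and the MCRS1 peak at SULT1A1 spans 1953 bp.

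Nearly all genes of basic cell functions were held by both factors. Of 77 cytosolic ribosomal protein genes, 76 had both, against 55.0% of all coding genes, and RPL36A had INO80 alone, in a peak of 232 bp. RPS2, a gene of the small ribosomal subunit, had 6503 bp of INO80 and 6514 bp of MCRS1, a place it shares with NDUFB10 of respiratory complex I. RPLP0 of the ribosomal stalk had 4566 bp of INO80 and 4379 bp of MCRS1. All 31 proteasome genes had both. Both were also found at 59 of 60 genes of mitochondrial gene expression, where MRPS6 had MCRS1 alone (189 bp), and at 51 of 52 respiratory chain genes, where COX6B1 had neither. Of 50 replication and cell cycle genes, 46 had both. The 3 with MCRS1 alone were CDK2, a cyclin-dependent kinase gene (681 bp), POLA1, which encodes the catalytic subunit of DNA polymerase alpha (415 bp), and RFC4, a clamp loader gene (358 bp). YY1 was listed at all of those 3.

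Transcription factor genes of the hepatocyte were held by both in wide peaks. Of 25, 23 had both, with a median of 2659 bp for INO80 and 2693 bp for MCRS1 among the 23, against 1137 bp and 1191 bp over all genes held by both. XBP1, a factor of the unfolded protein response, had 5743 bp of INO80 and 6445 bp of MCRS1. CEBPB, a factor of the acute phase response, had 4437 bp and 5302 bp, INO80 first. NR5A2, a nuclear receptor gene of bile acid synthesis, had 4029 bp of INO80 without MCRS1 within 1 kb of a start, and CREB3L3, which encodes a liver factor of triglyceride metabolism, had 312 bp of MCRS1 without INO80. For NR5A2 the nearest MCRS1 peak lay 1866 bp from a start.

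Genes of secreted plasma proteins were divided much as all coding genes were. Of 51, 31 had both (60.8%, against 55.0% of all coding genes), 18 had neither (35.3%, against 33.1%) and 2 had MCRS1 alone (3.92%, against 3.15%). None had INO80 alone, against 8.72% of all coding genes. SERPINA3, a protease inhibitor gene of the acute phase, had 1413 bp of MCRS1, and FGA, the gene of the fibrinogen alpha chain, had 338 bp. AFP, the gene of alpha-fetoprotein, had 7500 bp of INO80 and 10222 bp of MCRS1. The 18 with neither include F9 (coagulation factor IX), PLG (plasminogen), FGB (fibrinogen beta chain) and CRP. With the wider 50% of each list, 5 of the 51 had MCRS1 alone and 1 had INO80 alone.

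Lipid genes were held by both, and the MCRS1 peak was often the wider. Of 40 genes of lipid transport and synthesis, 35 had both, LPL (lipoprotein lipase) had INO80 alone in 547 bp, and APOA4, APOC4, INSIG1 and LIPC had neither. Among the 35, the MCRS1 peak was more than 2-fold wider at 12 (34.3%), against 10.9% of all genes held by both. The INO80 peak was more than 2-fold wider at 1, DHCR7, with 888 bp of INO80 and 348 bp of MCRS1. FASN, which makes fatty acids, had 4066 bp of INO80 and 12723 bp of MCRS1. APOA1, the gene of the main protein of high-density lipoprotein, had 4259 bp and 10159 bp, and LSS, a lanosterol synthase gene, 204 bp and 1844 bp, INO80 first in each. The MCRS1 peak of 10159 bp at APOA1 also reaches APOC3, so these 2 genes share a member peak. The median log2 ratio of INO80 to MCRS1 width was −0.30 in the list and −0.07 over all genes held by both.

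Genes of drug and bile acid metabolism were mostly without either. Of 31, 7 had both, 3 had INO80 alone, 1 had MCRS1 alone and 20 had neither. NR0B2, a nuclear receptor gene that curbs bile acid synthesis, had 4433 bp of INO80 and 5538 bp of MCRS1. The 3 INO80 peaks without MCRS1 were narrow, at 265 bp for CYP2D6, 180 bp for NR1H4 (the bile acid receptor) and 166 bp for GSTA2. NR1I3, a xenobiotic receptor gene, had 488 bp of MCRS1. CYP2D6 and GSTA2 have near-identical copies nearby, and their reads are uncertain.

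**Figure D4:**
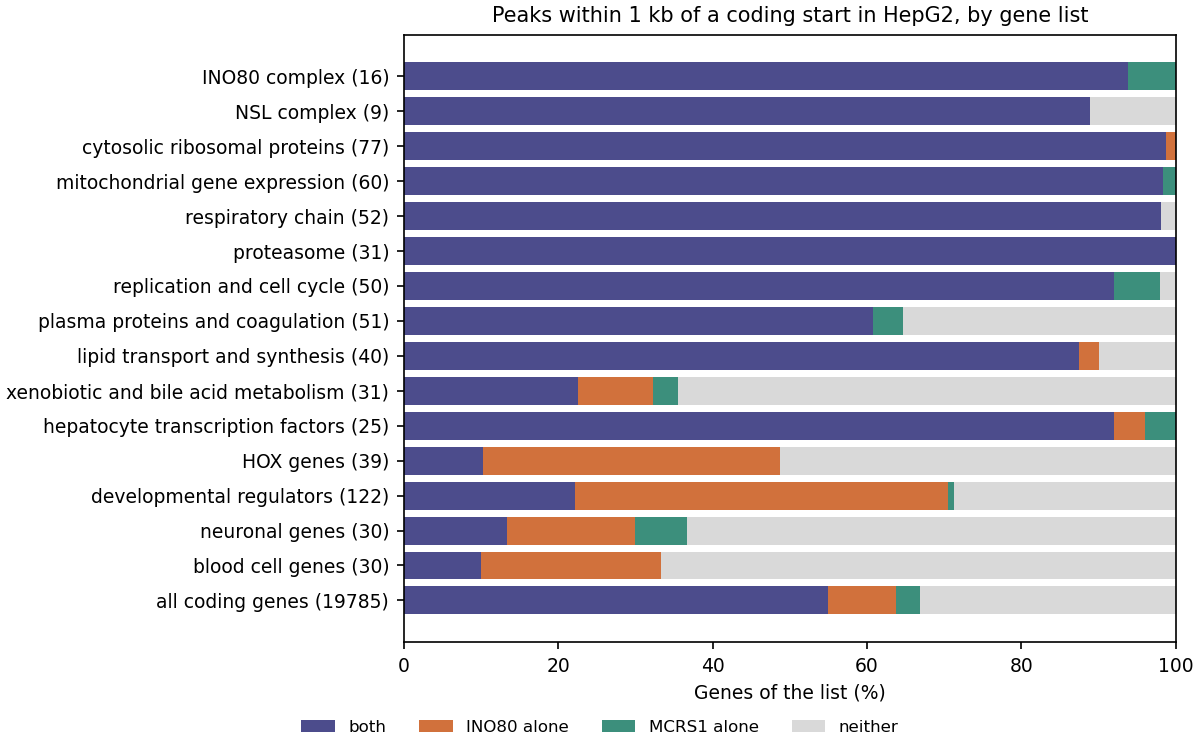
The percentage of genes in each of the 15 lists, and of all coding genes, that had both factors, INO80 alone, MCRS1 alone or neither within 1 kb of a coding start. INO80 alone makes up 48.4% of developmental regulators and 8.72% of all coding genes.

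INO80 alone was the most common class among developmental regulators. Of 122 genes of transcription factors that pattern the embryo, 27 had both factors, 59 (48.4%) had INO80 alone, 1 had MCRS1 alone and 35 had neither, against 8.72% with INO80 alone among all coding genes. The 59 INO80 peaks ranged over 212 to 8686 bp with a median of 1801 bp, and 46 were at least 1 kb wide. RFX4, a factor of neural tube patterning, had 4872 bp of INO80, FOXF1, a factor of lung and gut mesenchyme, 4726 bp, and PAX6, a factor of eye and pancreas, 3689 bp. The median distance to MCRS1 was 58853 bp. YY1 lay at 6 of the 59, RUVBL2 at 1 and RUVBL1 at none. Among all genes with INO80 alone, YY1 lay at 29.8%, RUVBL2 at 1.16% and RUVBL1 at 0.232%, while RUVBL1 lay at 16.8% of all coding genes. In Huh7, 30 of the 59 had INO80 and 1 had MCRS1, beside 51.4% and 3.24% of all genes with INO80 alone, so the INO80 share was near that of the class. The single gene with MCRS1 alone was TBX4, a limb factor gene, with 1145 bp.

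The imbalance went on among the 27 developmental regulators held by both. The INO80 peak was more than 2-fold wider at 11 of them (40.7%), and the MCRS1 peak at none, against 7.70% and 10.9% of all genes held by both. FOXC1, a factor of eye and mesoderm, had 4664 bp of INO80 and 298 bp of MCRS1. NKX2-1, a factor of lung and thyroid, had 3408 bp and 285 bp, and GBX2, a hindbrain factor, 3091 bp and 149 bp, INO80 first in each. SOX9, which liver progenitors and bile ducts express, had 6782 bp of INO80 and 6232 bp of MCRS1. The median log2 width ratio was 0.78 in the list and −0.07 over all genes held by both.

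**Figure D5:**
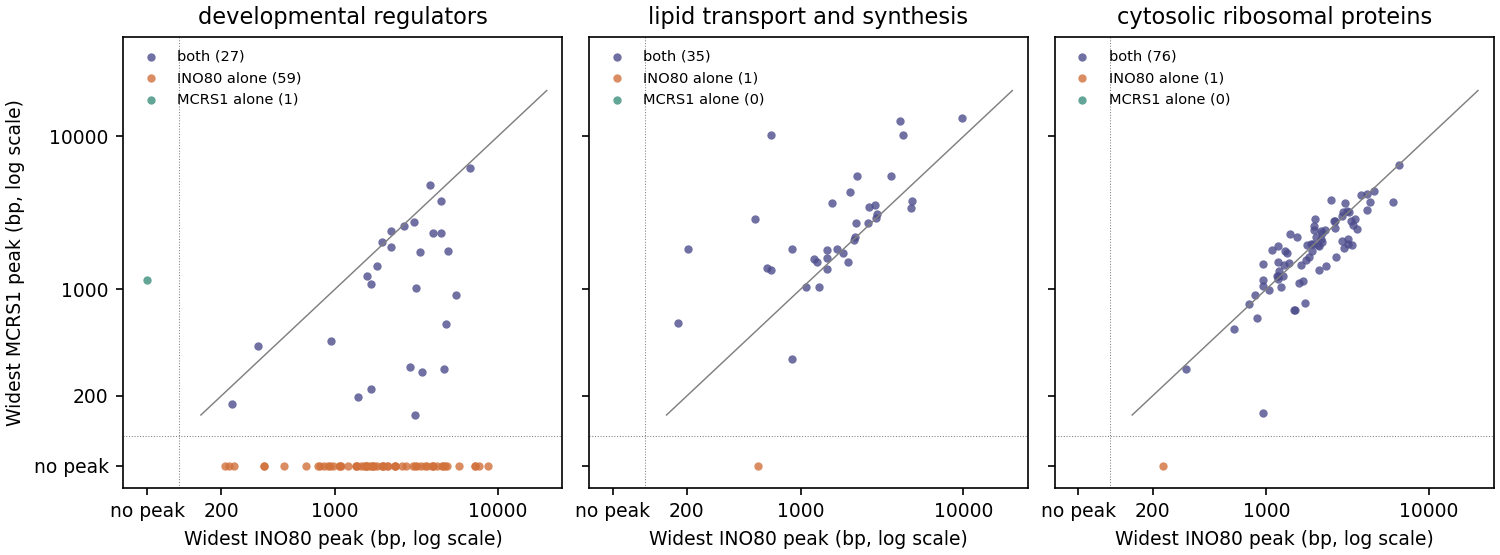
The width of the widest INO80 peak against that of the widest MCRS1 peak within 1 kb of a coding start, in bp on logarithmic axes, for developmental regulators, lipid genes and cytosolic ribosomal protein genes, with a line at equal width. Genes without a peak of a factor sit at the mark for no peak, as EN1 does with 8686 bp of INO80 and no MCRS1.

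HOX genes, which set position along the body axis, were also split between INO80 alone and neither. Of 39, 4 had both factors, 15 had INO80 alone, none had MCRS1 alone and 20 had neither. HOXA13 had 2849 bp of INO80, HOXB7 2052 bp and HOXA7 1994 bp. Genes held by both include HOXA4 (1384 bp of INO80, 1572 bp of MCRS1), HOXA5 (1207 bp of INO80, 439 bp of MCRS1) and HOXD1 (758 bp of INO80, 2071 bp of MCRS1). With starts within 5 kb, 10 HOX genes had both factors. HOX genes of a cluster lie close together, so they are not independent of each other.

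Of 30 neuronal genes, 4 had both, 5 INO80 alone and 2 MCRS1 alone. GAD1, which makes the transmitter GABA, had 4049 bp of INO80 and SLC32A1, its vesicular transporter gene, 2611 bp, both without MCRS1. SLC17A7, a glutamate transporter gene, had 589 bp of MCRS1 without INO80 and SNAP25, a synaptic fusion gene, 173 bp. Of 30 blood cell genes, 3 had both, 7 had INO80 alone, none had MCRS1 alone and 20 had neither. HBA1, an alpha-globin gene, had 3217 bp of INO80 and HBA2, its near-identical neighbour, 1743 bp, so the split of reads between them is uncertain. IKZF1, a lymphoid factor gene, had 2477 bp.

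The genes of the complex itself were held by both subunits. Of 16 INO80 complex genes, 15 had both, and RUVBL2 had a narrow MCRS1 peak of 197 bp without INO80. ACTB, the gene of the actin subunit, had 9818 bp of INO80 and 9226 bp of MCRS1. YY1 had 3100 and 3075 bp, INO80D 2387 and 2545 bp, INO80E 1623 and 2384 bp, and UCHL5, the deubiquitinase subunit gene, 1746 and 1388 bp, INO80 first in each. The INO80 gene had 1199 bp of INO80 and 1509 bp of MCRS1. The MCRS1 gene had 177 bp of INO80 and 1173 bp of MCRS1, and ACTL6A, an actin-related subunit gene, 282 bp of INO80 and 1498 bp of MCRS1. These were the genes of the list with an MCRS1 peak more than 2-fold wider. RUVBL1 had 1435 and 822 bp, ACTR5 980 and 1507 bp, ACTR8 750 and 760 bp, and NFRKB 767 and 1067 bp, INO80 first in each. INO80C had 743 and 758 bp, TFPT 529 and 636 bp, and INO80B 507 and 919 bp, in that order.

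Of 9 NSL complex genes, 8 had both factors. KANSL1, the scaffold gene, had 2783 bp of INO80 and 2703 bp of MCRS1, and HCFC1 2504 and 2440 bp. KAT8, the acetyltransferase gene, had 1360 and 890 bp, and WDR5 808 bp of each. PHF20 had 1427 and 1214 bp, KANSL2 1347 and 1233 bp, and KANSL3 839 and 1439 bp, INO80 first in each. OGT, which adds N-acetylglucosamine to proteins, had neither in HepG2 and an INO80 peak of 918 bp in Huh7.

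The promoters of 2 INO80 complex genes show the motif words at places held by both, and were chosen after the values were seen.
ACTR5, both, at a start (chr20:37376973-37377172): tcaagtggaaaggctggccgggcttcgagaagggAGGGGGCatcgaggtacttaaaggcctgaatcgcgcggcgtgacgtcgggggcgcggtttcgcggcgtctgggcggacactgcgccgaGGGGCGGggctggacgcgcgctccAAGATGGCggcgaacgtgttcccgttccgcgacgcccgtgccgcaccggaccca
INO80B, both, at a start (chr2:74682044-74682243): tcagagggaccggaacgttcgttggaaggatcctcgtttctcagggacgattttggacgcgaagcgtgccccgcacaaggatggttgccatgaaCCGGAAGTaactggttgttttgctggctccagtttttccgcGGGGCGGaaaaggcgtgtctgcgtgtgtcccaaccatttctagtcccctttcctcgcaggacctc
The ACTR5 window holds the CTCF, SP and YY1 words, and the INO80B window the ETS and SP words, in capitals.

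Base composition and some motif words at starts differed between the lone kinds. In 200 bp windows about the centres of peaks within 1 kb of a coding start, the median GC content was 69.0% for INO80 with MCRS1, 70.5% for INO80 alone and 61.5% for MCRS1 alone. No start lay inside 1856 of these 10243 INO80 peaks with MCRS1, 928 of 2297 lone INO80 peaks and 694 of 1059 lone MCRS1 peaks. The windows over all coding genes are centred on the start itself. The part of distance from the start in these contrasts was not tested. An observed to expected CpG ratio above 0.6, as in CpG islands, was found in 82.1% of INO80 with MCRS1, 78.7% (77.0 to 80.3) of INO80 alone and 45.2% (42.3 to 48.2) of MCRS1 alone. The YY1 word lay in 2.79% (2.49 to 3.13) of INO80 windows with MCRS1, 0.479% (0.268 to 0.856) of lone INO80 windows and 0.661% (0.321 to 1.36) of lone MCRS1 windows, against 3.19% of windows at the first start of every coding gene. The intervals of the lone kinds overlap for this word. The ETS word lay in 2.70% of INO80 windows with MCRS1, 0.305% (0.148 to 0.628) of lone INO80 windows and 2.46% (1.68 to 3.57) of lone MCRS1 windows, against 4.13% of all coding starts. The SP word lay in 31.4%, 28.2% and 19.6% of windows of these kinds, in the same order, and in 30.0% of all coding starts. Away from starts the HNF4 word lay in 0.890% (0.688 to 1.15) of INO80 windows with MCRS1, 0.233% (0.130 to 0.417) of lone INO80 windows and 0.767% (0.572 to 1.03) of lone MCRS1 windows. The FOXA word there lay in 3.01%, 1.78% and 3.26% of windows, in that order of kinds. Windows are centred on the middle of a peak, since the lists give no summit, and in a wide peak that point may lie far from the strongest signal.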

How the data were processed

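Peak positions on hg19 came from the authors' 9 deposited lists, already filtered by them, with 6 columns that give coordinates and no score. The submitters' processing notes name Bowtie2, SAMtools, deepTools, MACS2 and bedtools, without versions. Whether the libraries of a factor were pooled before peak calling is not stated. The planned ranking by score was replaced by peak width. The narrowest peak was 147 bp. Overlap needed at least 1 bp. Coding starts were those of GENCODE release 44 lifted to GRCh37, for 19785 protein-coding genes, and a gene was held when a peak lay within 1 kb of any of its coding starts.

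The members, gene lists and comparisons were chosen with earlier results of these data known. The 15 lists have 663 entries, of which 662 matched as written and 1 by an older symbol. Named were the 8 widest genes per class, the 5 widest places away from starts per kind, all INO80 and NSL complex genes, and up to 3 widest members per class of each other list. A few items that this rule names are not reported here. Genes named beyond that rule (those with neither factor, the width contrasts, RFX4, FOXF1 and PAX6) were chosen after their values were seen. Intervals are Wilson and Newcombe intervals at 95%. Code in Python 3.11.15 with numpy 2.4.6, pandas 2.3.3 and pysam 0.24.0 was checked on simulated lists. Input libraries, acetylation libraries and the fly tag counts were not used here. Alternatives were other overlap rules, widths, start windows and chromosomes.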

Additional observations from a re-analysis of the deposited data

How the results depend on the processing

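No paired analysis was possible because each factor has 1 peak list and no result comes from a test, and for the same reason no replicate could be left out. Main shares were 70.4% of INO80 peaks with MCRS1 and 71.0% of MCRS1 peaks with INO80, and all differences below kept their sign. With 50% of the peak covered, the shares were 62.0% and 58.4% (INO80 peaks first), with the other factor within 1 kb 76.0% and 77.2%, for 200 bp peaks 46.9% and 47.4%, and for the wider 50% of each list 73.7% and 74.3%. Without chromosomes 2, 14, 16, 17 and 20 the MCRS1 share was 72.9%. These first 4 settings are called covered, nearby, fixed width and wider from here on, in that order. In the wider setting every list was cut, so alone there means no overlap with the wider 50% of the other factor.

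The share at starts of INO80 with MCRS1 minus INO80 alone (28.8 points) was 27.1 covered, 22.9 nearby, 19.8 fixed width, 13.5 wider, 18.9 with starts within 5 kb and 25.3 with starts of all genes. That of MCRS1 with INO80 minus MCRS1 alone (45.9) was 42.2, 44.6, 28.7, 29.7, 33.7 and 42.5 points in the same order. INO80 alone minus MCRS1 alone (17.2) was 12.7 covered, 21.8 nearby, 8.85 fixed width and 14.5 within 5 kb.

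The YY1 share of INO80 with MCRS1 minus INO80 alone (63.1) was 54.0 covered, 59.4 nearby, 38.6 fixed width and 62.0 wider. That of MCRS1 with INO80 minus MCRS1 alone (45.0) was 32.5, 37.7, 29.0 and 15.7, and 41.4 without the 5 chromosomes. INO80 alone minus MCRS1 alone (−18.46) was −20.50, −22.09, −10.30 and −46.23, and −20.83 without them. The Huh7 INO80 difference (32.0) was 27.9 covered, 25.7 nearby and 16.3 fixed width. The Huh7 MCRS1 difference (23.1) was 20.9, 21.0 and 8.73, and 23.9 without the 5 chromosomes.

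Genes with INO80 alone numbered 2732 over the starts of all annotated genes, where more genes are counted. Genes with MCRS1 alone numbered 1231 there and 1487 for the wider 50%. The gene list settings were chosen after seeing the data. Developmental regulators held by both numbered 17 for the wider 50%, and those with MCRS1 alone 2 over all starts and 0 at fixed width. HOX genes held by both numbered 10 within 5 kb and 2 for the wider 50%, with 2 of MCRS1 alone within 5 kb. Plasma protein genes with INO80 alone numbered 1 within 5 kb, 1 for the wider 50% and 3 at fixed width, and those with MCRS1 alone 5 for the wider 50% and 4 at fixed width. The cause of these shifts was not tested. Among the comparisons of this section, the remaining 42 recomputed values stayed within their interval or within 1.5 times their count. Of the other recomputed values, which include single shares and the RUVBL contrasts, 186 left their interval and 36 stayed within it. For INO80 with MCRS1 minus INO80 alone, the RUVBL2 difference (54.1) was 23.8 at fixed width and the RUVBL1 difference (24.1) was 7.33.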

Other observations

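Gene families were counted by symbol prefix, chosen after the values were seen. Of 19 Wnt ligand genes, 2 had both factors at a start, 12 had INO80 alone, none had MCRS1 alone and 5 had neither. WNT1 had 3815 bp of INO80, WNT3A 3331 bp and WNT7B 3048 bp, all without MCRS1, while WNT3 had 2378 bp of INO80 and 2603 bp of MCRS1. INO80 was listed in Huh7 at 8 of the 12, and MCRS1 at none, beside 51.4% and 3.24% of all genes with INO80 alone. Of 82 potassium channel genes, 8 had both, 36 had INO80 alone, 1 had MCRS1 alone and 37 had neither. Of 44 collagen genes the counts were 7, 14, 2 and 21, in that order.

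Zinc finger genes named ZNF leaned the other way. Of 512, 340 had both factors, 12 had INO80 alone (2.34%), 49 had MCRS1 alone (9.57%) and 111 had neither, beside 8.72% and 3.15% of all coding genes with INO80 alone and MCRS1 alone. Of the 49, 32 lie on chromosome 19, and how many of all 512 lie there was not counted. YY1 in HepG2 lay at 45 of the 49, beside 86.0% of all genes with MCRS1 alone. The MCRS1 peaks at the 49 were 147 to 1321 bp wide with a median of 363 bp, beside 350 bp over all genes with MCRS1 alone. Many of these genes are close paralogs in clusters, so reads at them may be shared. Of 391 olfactory receptor genes, 1 had both factors and 390 had neither.

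Lone peaks were dense in some stretches. In the megabase of chromosome 3 from 171000001 to 172000000, at FNDC3B, PLD1, TMEM212 and TNIK, 40 lone INO80 peaks lay beside 3 lone MCRS1 peaks. In that of chromosome 17 from 79000001 to 80000000, at genes such as ACTG1 and BAHCC1, 16 lone INO80 peaks lay beside 51 lone MCRS1 peaks.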
